A study of Homo sapiens with 3 samples.

Results

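The p53 pathway genes described here are 33 genes: CDKN1A, the gene of the cyclin-dependent kinase inhibitor p21, the p53 regulators MDM2 and MDM4, and 30 further genes that p53 is known to switch on or that act with it. They were chosen by symbol from the array's annotation, out of 17614 gene symbols with a probe, and 37 probes measured them. HSC-3 is an established line of human squamous carcinoma cells of the tongue. Its total RNA was labelled with Cy5 and measured on 1-colour microarrays. Parental cells carried no vector. The shScr cells carried a lentiviral GFP vector with a short hairpin RNA (shRNA) of scrambled sequence, and the shDKK3 cells carried a lentiviral GFP vector with an shRNA that targets DKK3, the gene of a secreted dickkopf glycoprotein. Both vector lines, and not the parental cells, were kept in puromycin. The labels do not say whether a line was a clone or a pool. Each condition was measured on 1 array, so no test between conditions was possible, and every difference below is between arrays.

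The transcription factor p53 is stabilised by DNA damage and other stress. It then switches on genes that halt the cell cycle, repair DNA, change metabolism or trigger cell death. MDM2, itself a p53 target, binds p53 and marks it for degradation, which closes a feedback loop. Many p53 targets also answer to other inputs, such as the unfolded protein response, growth factors and NF-kB, so their RNA alone does not measure p53 activity. In squamous epithelium some of them, such as PERP, are also driven by p63, a relative of p53 in basal keratinocytes.

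DKK3, the gene targeted by the shRNA, had deposited values of 309 (parental), 226 (shScr) and 170 (shDKK3), on the authors' scale, which puts the median of each array at 25. Of 24451 usable gene probes, between 84.8% and 88.8% lay above the blank spots on each array. All 10 squamous keratinocyte markers examined, such as KRT5 and KRT14, were above the blank spots on every array. Their summed deposited value was 14556 (parental), 18511 (shScr) and 51839 (shDKK3), carried by the 4 keratins KRT5, KRT14, KRT17 and KRT6A. The 10 markers did not move as a group: 5 were higher on the shDKK3 array than on both controls (the keratins and CDH1), and 4 were lower (EPCAM, DSP, ITGA6 and DSG3). Markers of other cell types had low summed values, of 75.7 to 99.5 for 5 fibroblast genes, 27.0 to 33.6 for 3 leukocyte genes and 7.1 to 11.4 for 2 endothelial genes. Of these, LUM and PTPRC were not above the blank spots on any array, while DCN (72.9 to 92) and CD14 (23.8 to 31.9) were above them on all arrays. Differences below are in log2 intensity after background correction with an offset and quantile normalisation. The offset makes differences of dim genes smaller than in the deposited values. As a yardstick, each gene was given a control spread. This is the robust standard deviation of the shScr minus parental difference over the 500 genes nearest to it in intensity. The 2 control lines differ by vector and selection, so the spread mixes these with array-to-array variation and measures neither alone. On this scale DKK3 itself was at -0.39 against shScr, within its control spread of 0.48, and at -0.71 against parental, while the controls differed by -0.32.

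Within the p53 pathway genes, the shDKK3 array differed from the controls in both directions. By more than the control spread, 9 of 31 compared members (29.0%) were higher on it than on both control arrays, beside 20.9% of all genes. Among these 9 were DDB2, FDXR, CDKN1A, TP53I3 and PHLDA3. A second TP53I3 probe did not share this, and CDKN1A changed sign under another way of processing. Lower than both by more than that spread were 8 members (25.8%), beside 17.6% of all genes. MDM2, FAS, PMAIP1, ZMAT3 and GADD45A were among these 8. This limit was chosen after the values were seen. Above the blank spots on all 3 arrays were 30 members, and SESN3 was above them on 2. SPATA18, a gene of mitochondrial quality control, and TP53INP1, a stress-induced autophagy and cell death gene, were not well above background on any array and have no usable value.

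Against the shScr array, 2 of 31 compared members were at least 2-fold higher on the shDKK3 array, where 2.81% of all compared genes were, and 2 were at least 2-fold lower, where 4.25% of all genes were. Against the parental array, 0 members were at least 2-fold higher (0.797% of all genes) and 2 were at least 2-fold lower (2.81% of all genes). No member was 2-fold higher (0.529% of all genes) or 2-fold lower (1.93% of all genes) than both controls at once. With so few members past 2-fold, these shares lie 1 or 2 genes from those of all genes. The median of the members was -0.07 against shScr and 0.03 against parental, beside 0.02 for all genes in both comparisons. Higher than both controls by any size were 13 members and lower than both 12, while 47.2% of all genes were higher and 33.8% lower. By more than the control spread, a limit chosen after the values were seen, 9 members (29.0%) were higher than both controls and 8 (25.8%) lower, beside 20.9% and 17.6% of all genes. Of these 17 members, 10 kept their sign against both controls under every alternative setting with a value. The other 7 (CDKN1A, GDF15, SESN2, BTG2, MDM4, RRM2B and PLK2) changed it in a comparison under at least 1. The 10 had values under all 9 settings, except SESN3 against shScr, which had them under 8. Both comparisons share the shDKK3 array.

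**Figure D1:**
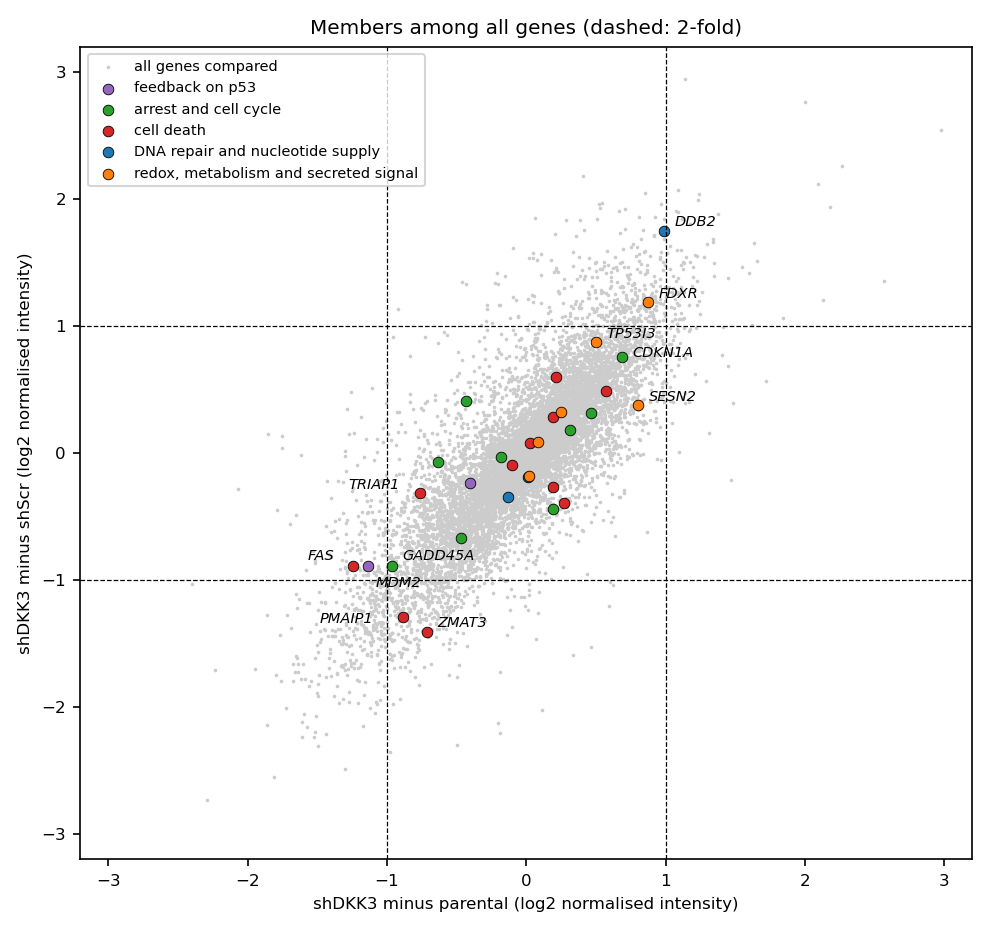
Difference of the shDKK3 array to the parental array (x axis) and to the shScr array (y axis) in log2 normalised intensity. Grey points are all genes compared, coloured points are the 31 compared p53 pathway genes by role, and dashed lines mark 2-fold. The members spread along the same diagonal as the other genes, with DDB2 and FDXR at one end and FAS, MDM2, PMAIP1 and ZMAT3 at the other.

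The authors' deposited table has no added offset and is scaled by the median of each array. Differences to shScr were larger in size there for 24 of 30 members and not for 6, among them GADD45A, PERP and PLK2. Past 2-fold against shScr in the authors' deposited table were 6 higher members (14.5% of all genes were higher) and 4 lower members (10.6% of all genes were lower). Against parental, the authors' deposited table had 4 members at least 2-fold higher (4.34% of all genes) and 5 lower (10.5% of all genes). At least 2-fold apart from both controls in that table were the higher members DDB2, FDXR and BTG2 (3.26% of all genes were higher) and the lower members FAS, PMAIP1 and ZMAT3 (7.26% of all genes). In that table the median of all genes was itself 0.32 above shScr and 0.10 above parental (log2), and that of the members was -0.02 and 0.07. Between the controls, 1 member of the authors' deposited table, CCNG2, was at least 2-fold lower on shScr than on parental (6.36% of all genes were).

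**Figure D2:**
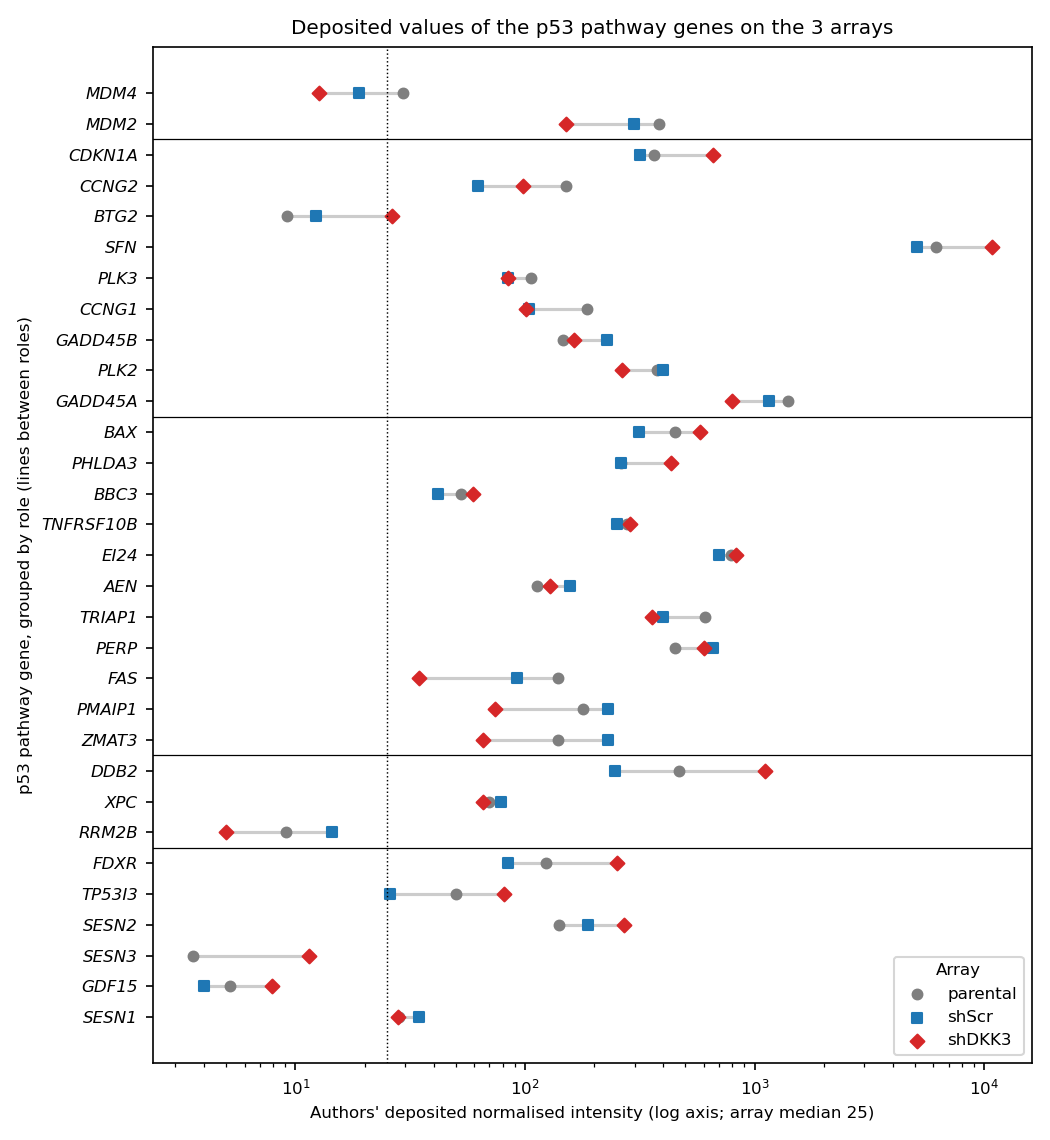
Authors' deposited normalised intensity (log axis, dotted line at the array median of 25) of the 31 detected p53 pathway genes on the parental (circle), shScr (square) and shDKK3 (diamond) arrays, 1 array each. Genes are grouped by role, and SESN3 has no shScr point because its spot was not above the blank spots. The shDKK3 point lies to the right of both controls for genes such as DDB2 and FDXR, and to the left of both for genes such as MDM2 and FAS.

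The sequences around the gene start are shown for 3 members that differed by at least 2-fold from a control, and for EI24, which did not, because they hold an exact match to the p53 half-site consensus, the pattern of which p53 binds a pair. Each line gives 30 bases of RefSeq GRCh38.p14, 5′ to 3′ on the strand of the gene, with the half-site in capitals.
DDB2 (chr11:47214975-47215004, plus strand): gtttGAACAAGCCCtGGGCATGTTTggcgg
FDXR (chr17:74872986-74873015, minus strand): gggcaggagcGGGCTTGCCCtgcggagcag
FAS (chr10:88991299-88991328, plus strand): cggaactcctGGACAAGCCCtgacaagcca
EI24 (chr11:125569457-125569486, plus strand): cgtgcggcccGGGCATGCCCagtgcgggcg
The search read both strands of the window from 250 bases before to 50 bases after each annotated start. DDB2 holds 2 half-sites that are 1 base apart, at bases 6 to 26 after one of its 2 annotated starts. A pair of exact half-sites at most 13 bases apart was found in 10 of 35116 windows of all genes (0.0285%). The half-site of FDXR lies at bases -11 to -2 and that of EI24 at bases -10 to -1. FAS has its half-site at bases -122 to -113 of 1 of its 3 annotated starts.

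Of 28 members with a promoter sequence, 7 (25%) held an exact half-site in a window, against 8.06% of 27305 RefSeq genes with such a window. Besides those shown, these were AEN, PLK2 and SESN1. The members were listed as p53 genes, so their higher share could follow from that choice alone. The differences of the 7 ran in both directions or were small. DDB2 and FDXR were higher on the shDKK3 array than on both controls, FAS and PLK2 were lower, and EI24, SESN1 and AEN lay within their control spreads in both comparisons. MDM2, PMAIP1, ZMAT3 and CDKN1A have no exact match in these windows, which says nothing about sites elsewhere. A match to the pattern describes the sequence and is not a measurement of binding.

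The feedback genes MDM2 and MDM4 both had their lowest signal on the shDKK3 array. MDM2, the ubiquitin ligase that degrades p53, had deposited values of 382 (parental), 297 (shScr) and 151 (shDKK3). Its log2 difference was -1.14 against parental and -0.89 against shScr, while the controls differed by -0.25 (shScr minus parental). Both differences exceeded its control spread of 0.42. MDM4, a relative of MDM2 that restrains the transcriptional activity of p53, had deposited values of 29.3 (parental), 18.9 (shScr) and 12.6 (shDKK3). Its differences were smaller, at -0.40 against parental and -0.23 against shScr, with a control spread of 0.15 for genes of its low intensity. With scaling to the 75th percentile, MDM4 was 0.10 above shScr.

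Among the genes of cell cycle arrest, CDKN1A was higher and GADD45A lower on the shDKK3 array. CDKN1A had deposited values of 364 (parental), 318 (shScr) and 662 (shDKK3). The log2 difference was 0.76 against shScr and 0.69 against parental, beyond the control spread of 0.42, and the controls differed by -0.07. It missed 2-fold in both comparisons, and its sign turned when the deposited background column served as local background, to -0.41 and -0.44. GADD45A, a stress sensor that binds PCNA and p21, had deposited values of 1391 (parental), 1150 (shScr) and 794 (shDKK3). It was at -0.89 against shScr and -0.96 against parental, just short of 2-fold, and the controls differed by -0.08. Over the 9 alternative settings its difference ran from -1.08 to -0.53 against shScr and from -1.61 to -0.81 against parental. GADD45B, a related gene known to be induced through NF-kB and TGF-beta, was highest on the shScr array, with deposited values of 146 (parental), 228 (shScr) and 164 (shDKK3), so its differences had opposite signs (-0.44 against shScr and 0.19 against parental).

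BTG2, an antiproliferative gene, was dim and stepped up to the shDKK3 array, with deposited values of 9.19 (parental), 12.3 (shScr) and 26.4 (shDKK3). After the offset these became differences of 0.31 against shScr and 0.47 against parental, with a control spread of 0.09, and with the deposited background column as local background the first was -0.03. PLK2, a kinase of centriole duplication, was lower on the shDKK3 array, with deposited values of 376 (parental), 400 (shScr) and 265 (shDKK3) and differences of -0.47 against parental and -0.67 against shScr. With the deposited background column as local background its signs turned, to 0.26 and 0.51. PLK3, a stress-responsive kinase, stayed within its control spread of 0.34, at -0.03 against shScr and -0.18 against parental.

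Both cyclin G genes had their highest signal on the parental array. CCNG1, whose product recruits a phosphatase to MDM2, had deposited values of 186 (parental), 104 (shScr) and 101 (shDKK3). Both vector arrays lay below the parental array, by -0.56 (shScr) and -0.64 (shDKK3), and they differed from each other by -0.07. Its second probe gave -0.34, -0.41 and -0.07 in the same order. CCNG2, a cyclin that is better known as a FOXO target, was 151 (parental), 62.3 (shScr) and 97.8 (shDKK3) in deposited values. Its shDKK3 signal lay between the controls, at 0.41 above shScr and -0.43 against parental. With the deposited background column as local background the latter was 0.16.

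SFN encodes 14-3-3 sigma, an epithelial protein that holds cells in G2. In the authors' deposited table SFN was 6141 (parental), 5074 (shScr) and 10819 (shDKK3), a ratio of 2.13 to shScr and 1.76 to parental. After quantile normalisation it was 0.18 above shScr and 0.31 above parental (log2), within its control spread of 0.36. Of the squamous markers given above, the keratins and CDH1 were also higher on the shDKK3 array, EPCAM, DSP, ITGA6 and DSG3 were lower, and ITGB4 lay between the controls. Their part in the SFN signal was not tested. Over the 9 alternative settings the SFN difference to shScr ran from 0.15 to 2.98.

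Several cell death genes had their lowest signal on the shDKK3 array. FAS, a death receptor of the TNF receptor family, had deposited values of 139 (parental), 92.4 (shScr) and 34.5 (shDKK3). It was at -1.24 against parental and -0.89 against shScr, and the controls differed by -0.35, about its control spread of 0.34. PMAIP1, which encodes the BH3-only protein NOXA, had deposited values of 179 (parental), 229 (shScr) and 74.1 (shDKK3), with differences of -1.29 against shScr and -0.89 against parental. ZMAT3, a zinc finger protein that binds RNA, had deposited values of 139 (parental), 229 (shScr) and 65.5 (shDKK3). The difference of ZMAT3 was -1.41 against shScr and -0.71 against parental. For PMAIP1 and ZMAT3 the shScr array lay above parental, by 0.40 and 0.69, so part of their distance to shScr lies between the controls.

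Other cell death genes did not share that direction. BAX, a pore-forming effector of the mitochondrial pathway, had deposited values of 451 (parental), 315 (shScr) and 580 (shDKK3), and was 0.60 above shScr and 0.21 above parental. BBC3, which encodes the BH3-only protein PUMA, was 52.4 (parental), 41.7 (shScr) and 59.5 (shDKK3) in deposited values, with differences of 0.29 against shScr and 0.19 against parental. PHLDA3, an inhibitor of AKT at the membrane, was 263 (parental), 262 (shScr) and 431 (shDKK3). PHLDA3 was thus 0.49 above shScr and 0.57 above parental, just beyond its control spread of 0.47.

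TRIAP1, an inhibitor of apoptosome formation, was highest on the parental array, at 605 (parental), 399 (shScr) and 359 (shDKK3) in deposited values. Its difference was -0.77 against parental and -0.31 against shScr. The other members of this role lay within their control spreads in both comparisons. The death receptor TNFRSF10B was at 0.08 against shScr and 0.03 against parental. EI24, an endoplasmic reticulum protein, was at -0.10 in both comparisons. Its deposited values of 786 (parental), 702 (shScr) and 826 (shDKK3) were instead highest on the shDKK3 array. The nuclease AEN (-0.26 against shScr and 0.19 against parental) and PERP, a desmosome protein (-0.39 and 0.27), had opposite signs, because the shScr array lay above the other arrays for both.

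Among the repair genes DDB2 stood out. DDB2, the damage-binding subunit that starts nucleotide excision repair of ultraviolet lesions, had deposited values of 467 (parental), 248 (shScr) and 1106 (shDKK3). The shDKK3 array was the highest and the shScr array the lowest. DDB2 was 1.75 higher on the shDKK3 array than on shScr, at percentile 99.8 of all compared genes, and 0.99 higher than on parental, at percentile 99.2. The latter difference is just below 2-fold, and the controls themselves differed by -0.76 (shScr minus parental). The difference of DDB2 to shScr stayed at least 2-fold under all 9 alternative settings, from 1.47 to 2.16. Among these, the settings without a dim-probe filter and with probe means could only repeat 1.75, as the 1 DDB2 probe was detected throughout.

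XPC, the partner that recognises lesions in the same repair pathway, was nearly level. Its deposited values were 69.7 (parental), 78.2 (shScr) and 65.6 (shDKK3), and its differences of -0.19 against shScr and 0.01 against parental lay within its control spread of 0.31. RRM2B, the p53-inducible ribonucleotide reductase subunit that supplies nucleotides, was dim, at 9.13 (parental), 14.4 (shScr) and 5 (shDKK3) in deposited values. Differences for RRM2B were -0.34 against shScr and -0.13 against parental after the offset. Both signs turned with scaling to the 75th percentile (0.06 and 0.16) and with the deposited background column as local background (0.03 and 0.01).

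**Figure D3:**
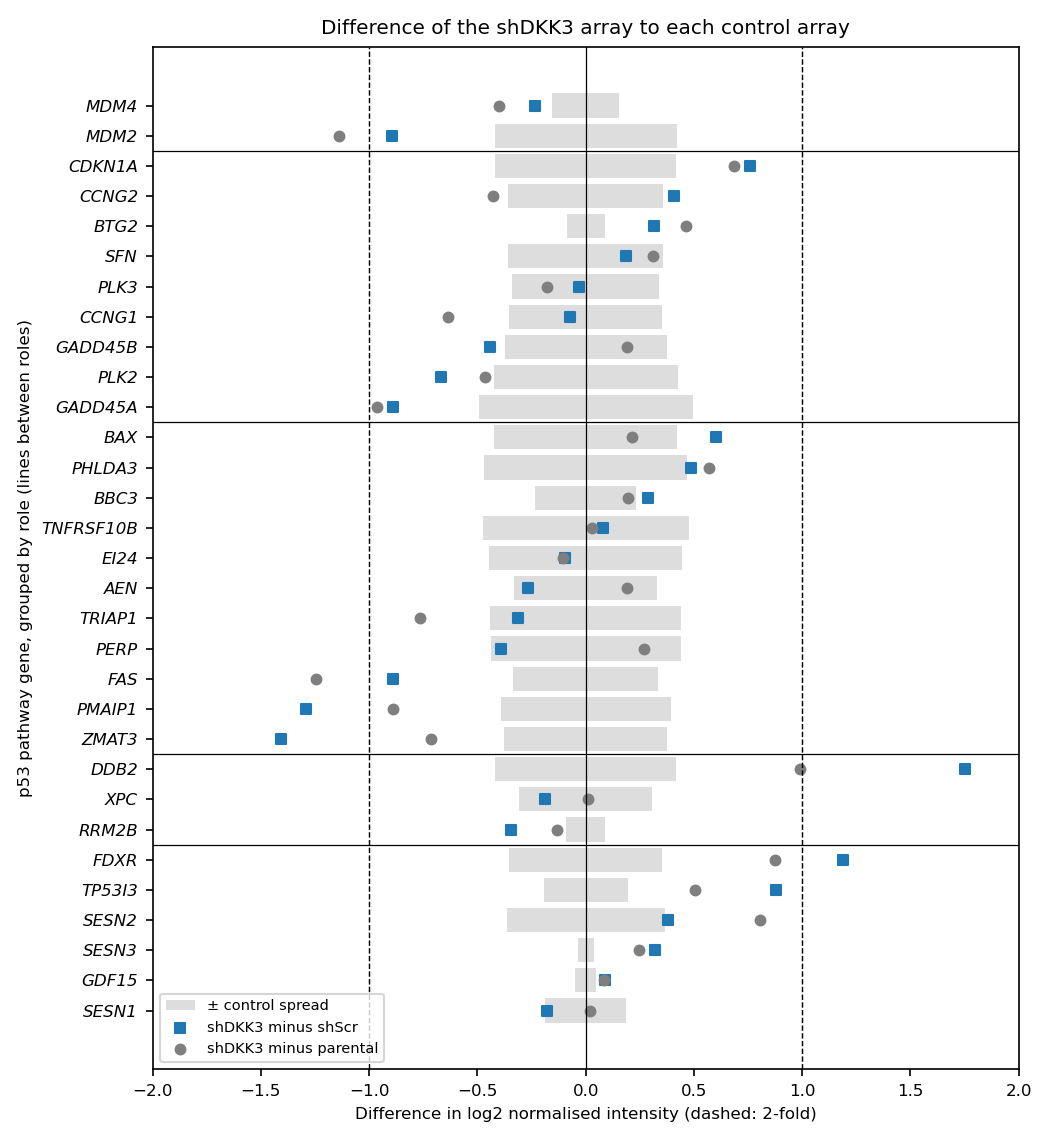
Log2 difference of the shDKK3 array to the shScr array (squares) and to the parental array (circles) for each of the 31 compared p53 pathway genes, grouped by role. Grey bars span the control spread either side of 0, which is narrow for dim genes, and dashed lines mark 2-fold. CDKN1A, DDB2 and FDXR lie to the right of their bars in both comparisons, and MDM2, GADD45A, PMAIP1, ZMAT3 and FAS lie to the left.

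Of the 6 compared genes of redox control, metabolism and secreted signals, 5 were higher on the shDKK3 array than on both controls by any size, where 47.2% of all genes were. One of the 5 is GDF15, whose other probe was lower than on both controls. FDXR, the ferredoxin reductase of mitochondrial steroid and iron-sulfur cluster synthesis, had deposited values of 123 (parental), 84.2 (shScr) and 253 (shDKK3). It was 1.19 higher than on shScr and 0.87 higher than on parental, and the controls differed by -0.31, within its control spread of 0.35. TP53I3, a quinone oxidoreductase, gave 50.1 (parental), 25.9 (shScr) and 81.1 (shDKK3) with its brighter probe, which corresponds to 0.88 above shScr and 0.50 above parental. The second TP53I3 probe did not share this, at 0.04 against shScr and -0.11 against parental.

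The sestrins are stress-induced inhibitors of mTORC1 signalling. SESN2, which is also induced through ATF4, stepped up from 140 (parental) to 188 (shScr) and 271 (shDKK3) in deposited values. The difference of SESN2 was 0.80 against parental and 0.38 against shScr, and with scaling to the median the latter was -0.03. SESN1 was 28.3 (parental), 34.4 (shScr) and 27.9 (shDKK3), with differences of -0.18 against shScr and 0.02 against parental. SESN3, a known FOXO target, was 3.57 (parental) and 11.5 (shDKK3), and not well above background on the shScr array. After the offset, which shrinks differences of dim genes, its signal was at least 1.24-fold higher on the shDKK3 array than on shScr. It was then 0.25 (log2) above parental, where the ratio of the deposited values was 3.23. The second SESN3 probe, above the blank spots on all arrays, was 1.81 (parental), 1.4 (shScr) and 10.7 (shDKK3), in the same direction.

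GDF15, a secreted stress cytokine, was close to the blank spots on all arrays. One GDF15 probe read 5.21 (parental), 4 (shScr) and 7.9 (shDKK3), and the other read 8.02, 4.6 and 1.8 in the same order, so the probes disagreed in direction.

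**Figure D4:**
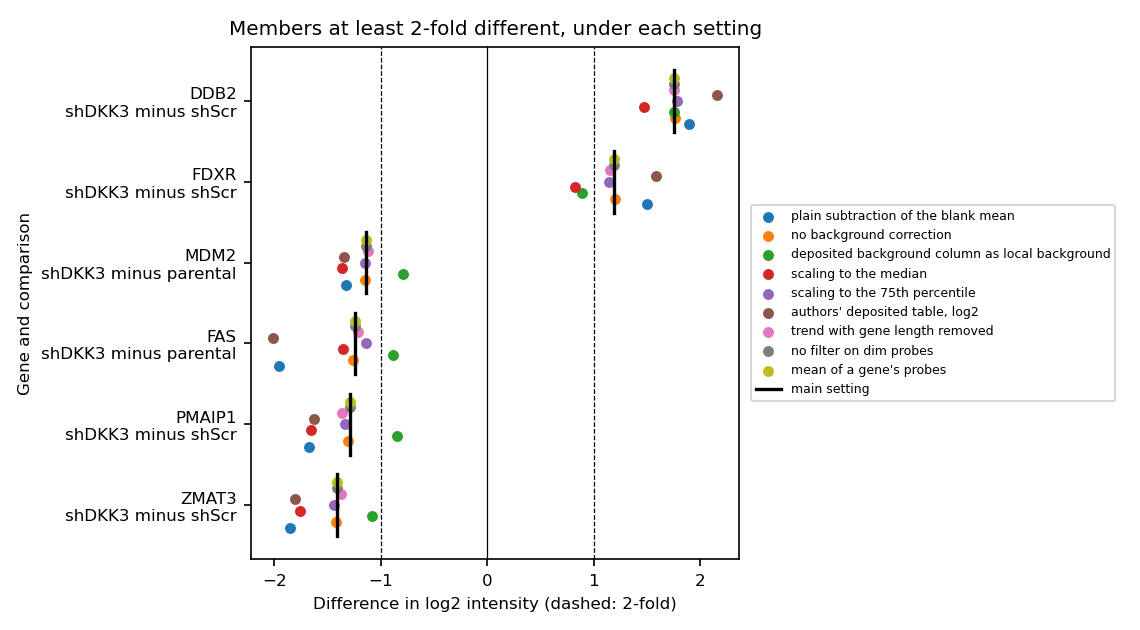
Log2 difference of each member that was at least 2-fold different in a comparison, under the main setting (black bar) and under 9 alternative settings (coloured points). Dashed lines mark 2-fold, and every point lies on the same side of 0 as its bar. DDB2 and ZMAT3 stay past 2-fold under all settings, and FDXR, MDM2, FAS and PMAIP1 drop inside it under at least 1. Without the filter on dim probes, and with the mean of a gene's probes, each point can only repeat its bar.

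Between the control arrays, 0 members were at least 2-fold higher on shScr than on parental (0.375% of all genes) and 0 at least 2-fold lower (0.912% of all genes). The median of the members was -0.05 and that of all genes 0.00. The differences of the members ran from -0.84 for CCNG2 to 0.69 for ZMAT3, so vector and selection, or array variation, came with differences of up to this size. They cannot be told apart with 1 array per condition.

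A wider list of 87 other p53 pathway genes, 38 regulators and cofactors of p53 and 49 further target genes, was compared in the same way. Against shScr, 5 of them (5.75%) were at least 2-fold higher on the shDKK3 array and 3 (3.45%) lower, beside 2.81% and 4.25% of all genes. The 5 were target genes and the 3 regulators. Against parental, 1 of 86 compared (1.16%) was at least 2-fold higher and 2 (2.33%) lower, beside 0.797% and 2.81% of all genes. These counts lie within 3 genes of the shares of all genes. The median of this list was -0.07 against shScr and -0.04 against parental, beside 0.02 for all genes in both. After normalisation, NPM1 was the 1 gene of the list at least 2-fold different from both controls. It was lower, and 1 of 86 (1.16%) is no more than the 1.93% of all genes that were lower than both. NPM1 encodes nucleophosmin, a nucleolar protein that restrains MDM2, and was at -1.34 against shScr and -1.04 against parental. In the authors' deposited table NPM1 was 17736 (parental), 16763 (shScr) and 12633 (shDKK3), much closer together than after normalisation. It has many processed pseudogene copies, so its signal may hold RNA of more than 1 locus.

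After normalisation, no gene of the wider list was 2-fold higher than both controls (0.529% of all genes were), and the 3 with the largest smaller difference were NADSYN1, TP53I11 and CDKN2A. NADSYN1, the NAD synthetase, was 0.88 above shScr and 0.93 above parental. TP53I11 was 0.86 and 1.04 above them. CDKN2A, which encodes the MDM2 inhibitor p14ARF and the kinase inhibitor p16, had deposited values of 165 (parental), 146 (shScr) and 322 (shDKK3), and was 0.88 above shScr and 0.82 above parental. In the authors' deposited table TP73, TP53I11 and NADSYN1 (3 of 86 compared) were at least 2-fold higher than both controls (3.26% of all genes were) and 5, ATR, CDKN2AIP, SIRT1, POLK and ASCC3, were lower (7.26% of all genes). With subtraction of the blank mean, where the shares of all genes were not computed, 4 were higher and 8 lower.

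The target genes that were 2-fold higher than on shScr, named after their values were seen, were BID, ORAI3, CMBL, SLC12A4 and IGFBP3. BID, a BH3-only protein, differed mainly on the shScr array. Its deposited values were 941 (parental), 290 (shScr) and 1104 (shDKK3), so it was 1.54 above shScr, 0.02 above parental and at -1.52 between the controls. The other lower regulators, also named after their values were seen, were CDKN2AIP (-1.31 against shScr and -0.74 against parental) and the kinase DYRK2 (-1.25 and -0.55). BLOC1S2, a subunit of a lysosome biogenesis complex, was at -1.02 against parental and -0.97 against shScr.

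Differences on the shDKK3 array also moved with gene length. Against shScr the median difference was 0.08 for the shortest and -0.02 for the longest of 4 equal groups of genes by genomic length, and against parental it was 0.07 and -0.03. With this trend removed, all members that were at least 2-fold different remained so. The values then were 1.75 for DDB2 and 1.15 for FDXR against shScr.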

How the data were processed

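The scanner files hold intensity values. The authors joined scans at 3 gains into 1 spot median at 635 nm, per the file headers, and that column was used. The authors' deposited normalised intensity is proportional to the spot median less the blank mean. The latter is 1.41, 1.83 and 1.04 times the deposited value on the parental, shScr and shDKK3 arrays. Empty cells of the deposited table are spots below a limit set by the blank spots. This limit is their mean plus 2 SD (5% left out at each end), as worked out from the values. The scanner software is not given in the sources used here.

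Spot medians were corrected with normexp (offset 50, all spots) and the gene probes quantile normalised on the log2 scale with limma 3.58.1 in R 4.3.3. Left out were 9 gene probes whose spot was flagged on an array. A probe was detected above the deposited table's limit, and a gene entered a comparison where detected on the brighter array. A gene was read from its probe with the highest mean. The 24 copies of a positive control on an array varied with an SD of 0.08 to 0.14 (log2), a measure of spot noise alone. Precision is limited by the number of arrays. The procedure was tested on simulated data. Symbols came from the platform annotation: 20228 probes had 1 symbol, 0 had several and 4223 had none. All 33 members carry a current RefSeq symbol. Sequences and gene lengths are those of RefSeq GRCh38.p14.

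A call is a log2 difference of at least 1 in size, and no p-value was computed. The 9 alternatives were blank subtraction, no background correction, the deposited background column as local background, scaling to the median or 75th percentile, the authors' table on the log2 scale, subtraction of the running median over gene length, no filter on dim probes, and the mean of a gene's probes. By rule all members are described, with up to 4 genes each way of the wider list that are at least 2-fold different from both controls, or the nearest 3. Members and lists were chosen with earlier results of these data known.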

Additional observations from a re-analysis of the deposited data

How the results depend on the processing

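No paired analysis was possible because each condition has 1 array. None of the 6 differences of members past 2-fold changed sign under the 9 alternatives. DDB2 and ZMAT3 stayed past 2-fold under all 9, PMAIP1, FAS and MDM2 under 8 and FDXR under 7. Each of these 6 genes has 1 probe, detected on all 3 arrays. The settings without a filter on dim probes and with the mean of a gene's probes could therefore only repeat its main value. Of 180 recomputed counts and medians, 130 stayed close to the main value and 50 moved. Among the recomputed differences of single members, 654 stayed close to the main value and 181 moved. The former include settings that could only repeat the main value. Shares of all genes past 2-fold were computed for the main setting and the authors' deposited table only. Counts under the other settings have no such share beside them, so they cannot be read as a shift of either list. With subtraction of the blank mean, 4 members were higher and 5 lower than shScr, 4 higher and 6 lower than parental, 3 higher and 4 lower than both, and 2 were lower on shScr than on parental. In the wider list 11 were then higher and 21 lower than shScr, 4 higher and 12 lower than parental, and 3 higher and 4 lower between the controls. In the authors' deposited table, 6 members were higher (14.5% of all genes) and 4 lower (10.6%) than shScr. Against parental 4 were higher (4.34% of all genes) and 5 lower (10.5%). Against both, 3 were higher (3.26% of all genes) and 3 lower (7.26%), and 1 was lower on shScr than on parental (6.36%). The wider list, with 86 compared, had 11 higher and 14 lower than shScr in that table. It had 3 higher and 9 lower than parental, and 7 lower on shScr than on parental, beside the same shares of all genes. With scaling to the median, 1 member was higher and 6 lower than shScr (median -0.30), 4 were lower than parental and 4 lower than both. The wider list then had 2 higher and 9 lower than shScr (median -0.28) and 0 higher than parental. With scaling to the 75th percentile, 1 member (DDB2) was higher than parental and than both controls, and the wider list had 2 higher than shScr and 0 higher or lower than parental. With the deposited background column as local background, 1 member was lower than shScr, 1 was higher and 1 lower than parental, 1 (SFN) was higher than both, and 1 was lower on shScr than on parental. In the wider list this setting gave 0 higher and 5 lower than shScr, 0 higher than parental, and 1 higher and 0 lower between the controls. With the mean of a gene's probes, 1 gene of the wider list was lower than parental. Scaling to the 75th percentile and the authors' deposited table put the median of all genes 0.39 and 0.32 above shScr, so counts of higher genes are relative to that shift. Normalisation cannot be settled with 1 array per condition, and the cause of these moves was not tested, apart from the offset, which by construction shrinks differences of dim genes.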
